A study of Rattus norvegicus with 6 samples.

Results

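The metabotropic glutamate receptor genes Grm2, Grm3, Grm4, Grm5, Grm7 and Grm8 were followed across the cell classes of the rat nucleus accumbens, a ventral striatal region. They were chosen by gene symbol, and all 6 were found among the 25629 genes of the count tables. The nuclei came from Sprague-Dawley rats aged 90 to 120 days, 6 males and 6 females, pooled across sex into 6 single-nucleus RNA libraries. Every rat had a history of heroin self-administration, with 7 fixed-ratio 1 days, 4 fixed-ratio 3 days, a progressive-ratio session on day 12 and fixed-ratio 3 again on days 13 and 14. The 3 saline libraries came from rats then injected with saline, and the 3 naloxone libraries from rats given naloxone, an opioid receptor antagonist that precipitates withdrawal. Brains were taken 1 h after that injection. Both groups therefore share the heroin history, and no heroin-naive animals were among the samples. The labels do not say which rats went into which pool, so p-values measure the spread between these pooled libraries only.

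Metabotropic glutamate receptors are G-protein-coupled receptors that respond to glutamate over longer times than the ion channels at the same synapses. The group I receptor mGlu5, encoded by Grm5, couples through Gq to phospholipase C and calcium release, is tied to the postsynaptic density by Homer scaffold proteins, and is known for its part in striatal plasticity and drug seeking. The group II receptors mGlu2 and mGlu3 (Grm2 and Grm3) and the group III receptors mGlu4, mGlu7 and mGlu8 (Grm4, Grm7 and Grm8) couple through Gi/o and lower cyclic AMP. Many of them sit on axon terminals and reduce transmitter release, and mGlu3 is also found on glia. The accumbens receives glutamate from cortex, hippocampus, amygdala and thalamus, whose cell bodies lie elsewhere, so RNA of receptors on those terminals is not measured in accumbens nuclei.

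The files held 64260 barcodes, against 44592 nuclei stated in the labels, and 58960 nuclei were used after filters. Library totals ran from 55739350 to 76272798 unique molecular identifiers (UMIs, the counted RNA molecules), and 463 barcode sequences occurred in more than 1 library. Nuclei were clustered without the receptor genes, and 24 of 52 clusters, holding 41116 nuclei, were named from marker lists as 17 classes. Spiny-type neurons were split by their lists into Drd1-like, Drd2-like, Casz1-like (the eccentric type) and Chst9-like classes. Of the Drd1 markers found, Eya1 (0.215% of Drd1-like nuclei against 4.80% of other classes) went the other way. The Drd3-like class, named from a list of island GABA neurons, is grouped with the spiny classes here. Of its list, Drd3, Adamtsl1 and Cpne4 were found in 71.9, 88.1 and 58.9% of its nuclei. Rxfp1 (0.151% against 1.83% of other classes) and Dgkk (0.0505% against 1.17%) went the other way. Of the Chst9 list, Chst9, Oprm1 and Vwc2l were found in 86.9, 69.4 and 90.5% of Chst9-like nuclei and Fermt1 in 2.18%. Cpa6 (0.296%, against 0.473% of other classes) and Stk32b (1.16% against 2.96%) went the other way. A further cluster led by Pde11a carried most Drd1 markers, with Drd1 in 24.0% of its nuclei (7.34% of other classes). Ebf1 (1.22% against 7.59%) and Eya1 (0.195% against 4.73%) went the other way. Drd3 was among its leading genes and no gene of the Drd1 list was, so the naming rules left it unnamed. It is given as the Pde11a-led cluster. Interneurons were split into cholinergic-like, somatostatin-like and Kit-like classes. Of the Kit-like list, Pthlh, Pvalb, Kit and Kcnc2 were more frequent in the class than in other classes. Tac3 (3.51% against 5.91%) and Eya4 (3.84% against 16.3%) went the other way. A separate list of GABA neurons (Bnc2, Nxph2 and Prlr) named the Bnc2-like class. Non-neuronal classes included astrocyte-like, oligodendrocyte-like, oligodendrocyte precursor-like (OPC-like) and committed precursor-like (COP-like) nuclei, microglia-like nuclei and vessel cells. Levels are CPM (a gene's UMIs in the summed nuclei of a class, scaled so that each library's class total is 1000000), as mean ± SD over the 6 libraries. In nuclei, introns add counts to long genes, so levels are compared between classes for 1 gene and never between genes. The summed RNA of 6 spiny-neuron marker genes was 4321 CPM in Drd1-like, 4875 in Drd2-like, 4044 in Pde11a-led and 3810 in Casz1-like nuclei. It was 1959 CPM in Drd3-like and 1097 CPM in Chst9-like nuclei. Somatostatin-like, Kit-like and Bnc2-like nuclei read 1711, 1423 and 1131 CPM. The grouping of the Drd3-like and Chst9-like classes as spiny was not tested.

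The group I receptor gene Grm5 was highest in Drd1-like nuclei, at 5739 ± 256 CPM (n = 6 libraries). The saline libraries stood at 5603, 5468 and 5666 CPM and the naloxone libraries at 6197, 5646 and 5855 CPM. Drd2-like nuclei followed at 5169 ± 229 CPM, with 5026, 4894 and 5253 CPM in saline and 5565, 5128 and 5145 CPM in naloxone libraries. The ranges of the 2 classes overlap, yet within each of the 6 libraries Drd1-like nuclei were the higher, by 571 ± 101 CPM (exact sign-flip permutation test, 2-sided, p = 0.03125, the smallest that 6 libraries can give; adjusted over the 6 receptor genes, 0.0375). Fitted over all genes, the difference was a log2 of -0.17 (SE 0.017) for Drd2-like against Drd1-like nuclei (edgeR quasi-likelihood test, adjusted p = 8.37e-08). Under a per-nucleus marker gate in place of clusters it was 0.04, so the order of these neighbours depends on how the classes are drawn. The Pde11a-led cluster, at 5057 ± 187 CPM, was close to both.

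Below these, among named classes, stood a second tier of Grm5 at nearly one level. Bnc2-like nuclei were at 2947 CPM, Casz1-like at 2833 CPM and Chst9-like at 2826 CPM. Clusters that no list named, led by Dcdc1-ps1 and by Ano2, lay between the tiers at 4865 and 4802 CPM. Drd1-like nuclei held 2.03 times the level of Chst9-like nuclei, with library ratios from 1.96 to 2.08, and the fitted difference of Chst9-like against Drd1-like nuclei was a log2 of -1.21 (edgeR, adjusted p = 1.40e-19). Drd3-like nuclei were lower, at 1443 CPM, with Drd1-like nuclei 3.98 times higher. Kit-like (1339 CPM) and somatostatin-like (1158 CPM) interneurons and the OPC-like nuclei (1137 ± 134 CPM) lay near each other, and cholinergic-like nuclei were at 750 CPM.

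Among glia, Grm5 was higher in OPC-like than in oligodendrocyte-like nuclei. OPC-like nuclei held 12.7 times the level of oligodendrocyte-like nuclei (89.6 CPM), with library ratios from 8.40 to 20.5 and a fitted log2 of 3.79. Astrocyte-like nuclei stood at 704 ± 173 CPM, which was an average of a pair of unlike clusters. The astrocyte-like cluster led by Slc1a2, the main astrocytic glutamate transporter, had 357 ± 98.1 CPM. The cluster led by Lama2, a laminin subunit gene, had 1697 ± 233 CPM, or 4.75 times more, and was the higher in all 6 libraries, with ratios from 3.64 to 9.11. RNA of 6 spiny-neuron marker genes, summed, was 1065 CPM in astrocyte-like, 910.3 CPM in OPC-like and 701 CPM in oligodendrocyte-like nuclei, against 4321 CPM in Drd1-like nuclei. The part of such neuronal RNA in the glial Grm5 levels was not tested. Under the per-nucleus gate the oligodendrocyte-like nuclei took in more of it (1828 CPM of spiny markers and 1898 CPM of Grm5), and the Grm5 differences turned, to -0.34 for OPC-like and -0.98 for astrocyte-like against oligodendrocyte-like nuclei. After each nucleus was thinned to 1000 UMIs, 28.9% of astrocyte-like and 59.9% of OPC-like nuclei held a Grm5 UMI, against 8.25% of oligodendrocyte-like nuclei (42.9%, 85.0% and 12.9% before thinning).

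**Figure D1:**
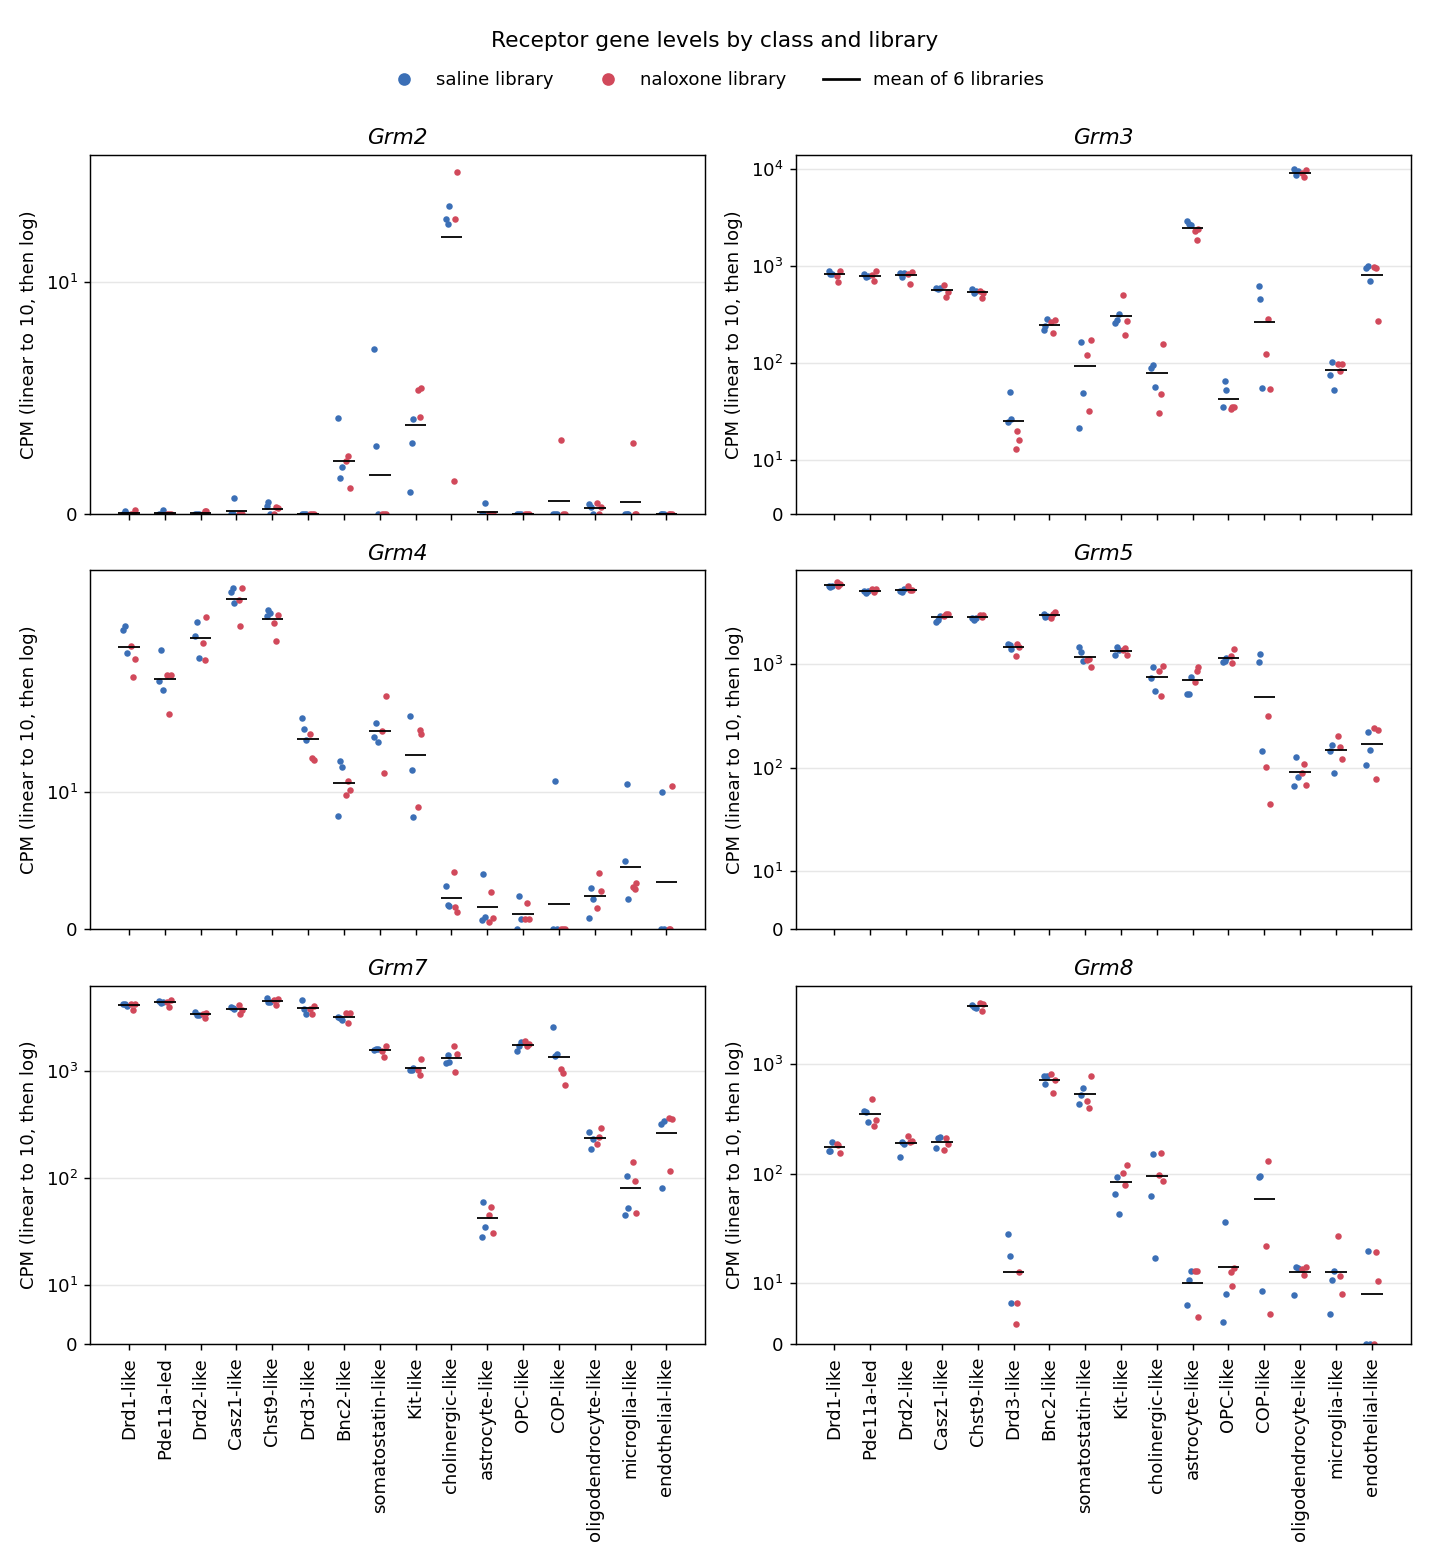
Levels of the 6 receptor genes in each class, in CPM on an axis that is linear to 10 and logarithmic above. Each point is 1 library (blue saline, red naloxone) and each bar the mean of 6 libraries. Grm3 is highest in oligodendrocyte-like, Grm5 in Drd1-like and Grm8 in Chst9-like nuclei, and saline and naloxone points lie together in most classes.

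The group II gene Grm3 showed another distribution, led by glia. Oligodendrocyte-like nuclei held 9263 ± 669 CPM, with 10058, 8761 and 9523 CPM in saline and 9071, 8314 and 9853 CPM in naloxone libraries. Grm3 alone thus made up 0.926 ± 0.0669% of the UMIs of these nuclei. Astrocyte-like nuclei followed at 2486 ± 360 CPM, 3.73 times lower, and the difference of 6778 CPM had the same direction in 6 of 6 libraries (exact sign-flip permutation test, p = 0.03125, adjusted 0.0375). No library of one class reached the range of the other. A gene annotated as Elapor2 overlaps Grm3 in RefSeq, and whether counting used strand is not given in the sources used here. Elapor2 stood at 760 CPM in COP-like, 689 CPM in oligodendrocyte-like, 354 CPM in cholinergic-like, 197 CPM in somatostatin-like, 124 CPM in OPC-like, 57.9 CPM in astrocyte-like and 29.2 CPM in Drd3-like nuclei. Its part in the Grm3 counts was not tested, and the low Grm3 values of the COP-like, OPC-like and some neuronal classes are uncertain for that reason.

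Within the oligodendrocyte lineage Grm3 was low in precursors and high in mature cells, the opposite of Grm5 and Grm7. OPC-like nuclei, the dividing precursors, held 42.8 ± 13.3 CPM of Grm3, so the oligodendrocyte-like level was 217 times higher, with library ratios from 134 to 290.0, and the fitted log2 for OPC-like against oligodendrocyte-like nuclei was -7.65. After thinning to 1000 UMIs, 98.8% of oligodendrocyte-like nuclei held a Grm3 UMI and 3.37% of OPC-like nuclei (99.2% and 9.34% before); 1883 oligodendrocyte-like nuclei (16.1%) were too shallow for this and were left out. In Drd3-like neurons, which had the lowest Grm3 level of these classes, the thinned share was 1.94% (5.92% before). COP-like nuclei, the step between, stood at 265 ± 233 CPM with a wide spread over libraries. The 4 oligodendrocyte-like clusters differed less from each other: the Gpd1-led had 10199, the Opalin-led 9642, the Creb5-led 8109 and the Rasgrp3-led 6394 CPM. In the first saline library the Gpd1-led cluster had only 12 nuclei and read 13294 CPM, against 8642 to 11063 CPM in its other libraries.

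**Figure D2:**
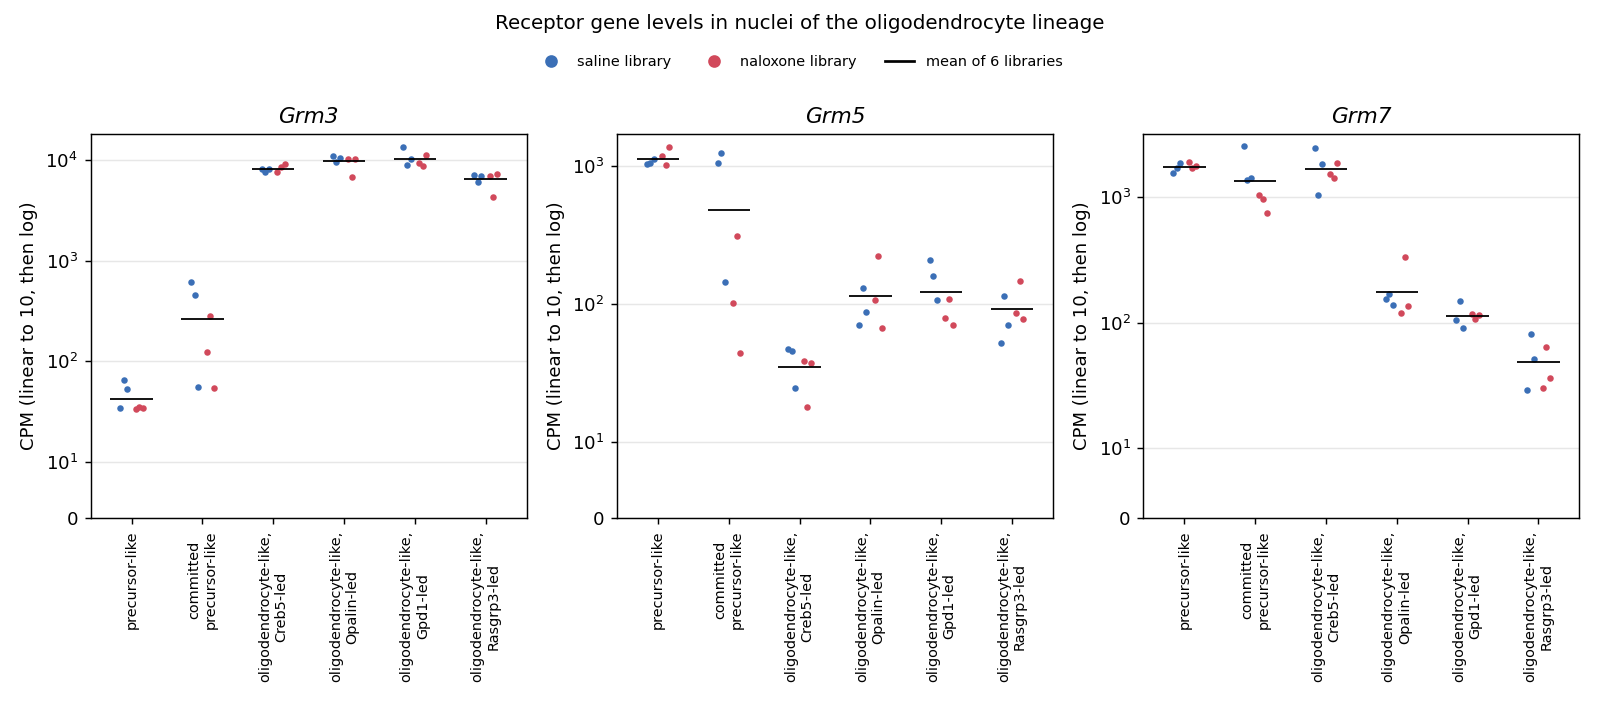
Grm3, Grm5 and Grm7 in the oligodendrocyte lineage, in CPM on an axis that is linear to 10 and logarithmic above, with 1 point per library and a bar at the mean of 6. From OPC-like to oligodendrocyte-like nuclei Grm3 goes from 42.8 to 9263 CPM while Grm5 goes from 1137 to 89.6 and Grm7 from 1747 to 236.5 CPM, and the Creb5-led cluster stands out for Grm7.

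Grm3 also marked differences among astrocytes and neurons. The Slc1a2-led astrocyte cluster held 2955 CPM against 1124 CPM in the Lama2-led cluster, a ratio of 2.63 with library values from 2.48 to 2.98, which is the reverse of the order for Grm5. Drd1-like (823 ± 74.4 CPM), Drd2-like (805 ± 78.1 CPM) and Pde11a-led (796.5 CPM) nuclei did not differ beyond their spread, with a fitted log2 of -0.06 for Drd2-like against Drd1-like nuclei (edgeR, adjusted p = 0.156). Other settings called this fitted difference, in both directions. It was -0.076 with doublets kept (edgeR, adjusted p = 0.0475), -0.081 at a coarser clustering (0.0343) and 0.29 under the marker gate (0.000465). Casz1-like (571 CPM) and Chst9-like (535 CPM) nuclei were lower, Drd3-like nuclei were at 24.9 CPM, 33.0 times under Drd1-like, and cholinergic-like nuclei at 78.9 CPM. Mural-like and endothelial-like nuclei read 1727 and 810 CPM, but their summed spiny markers, at 2378 and 1996 CPM, were also the highest of the non-neuronal classes; the part of neuronal RNA in these levels was not tested.

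The other group II gene, Grm2, was near the limit of detection. Its highest class was the cholinergic-like interneurons, the tonically active acetylcholine cells of the striatum, at 12.9 ± 5.86 CPM from 51 UMIs in 285 nuclei. The saline libraries read 14.2, 13.8 and 15.2 CPM and the naloxone libraries 1.39, 14.2 and 18.4 CPM, so 1 naloxone library stood far under the others. Among named classes Kit-like nuclei came next at 3.82 ± 1.68 CPM (27 UMIs). Clusters that no list named, led by Slc17a6, Igf1 and Dcdc1-ps1, read 9.64, 9.38 and 4.61 CPM. The difference of 9.03 CPM between cholinergic-like and Kit-like nuclei was seen in 5 of 6 libraries. It did not pass the exact sign-flip permutation test (p = 0.0625, adjusted 0.0625). No Grm2 UMI was found in 1982 Drd3-like nuclei, which allows up to 0.151% of nuclei with a UMI, nor in 2140 OPC-like nuclei (up to 0.140%), 317 endothelial-like (up to 0.946%) or 216 mural-like nuclei (up to 1.39%), limits that cover counting error only and say nothing of nuclei that express the gene below detection.

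Of the group III genes, Grm8 was the most uneven among the classes grouped here as spiny. Chst9-like nuclei held 3399 ± 212 CPM, with 3460, 3367 and 3303 CPM in saline and 3639, 3051 and 3575 CPM in naloxone libraries. Every other named class was far under that range. The nearest was the Bnc2-like class at 716 ± 99.9 CPM. The difference of 2684 ± 147 CPM held in 6 of 6 libraries (exact sign-flip permutation test, p = 0.03125, adjusted 0.0375). Chst9-like nuclei exceeded Drd1-like nuclei (175 ± 16.2 CPM) 19.5 times, with library ratios from 16.5 to 22.9, and exceeded Drd2-like (191 CPM) and Casz1-like (194 CPM) nuclei 17.8 and 17.5 times. The fitted log2 against Drd1-like nuclei was 4.09 (SE 0.052, edgeR, adjusted p = 1.16e-23). After thinning to 1000 UMIs, 86.6 ± 1.85% of Chst9-like nuclei held a Grm8 UMI against 11.3% of Drd1-like, 11.7% of Drd2-like and 1.27% of oligodendrocyte-like nuclei (97.2%, 29.9%, 31.2% and 2.06% before).

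The Drd1-like and Drd2-like averages of Grm8 covered clusters that were far apart. In the Drd1-like class the Ebf1-led cluster read 43.4, 40.4 and 33.8 CPM in saline and 77.0, 43.3 and 43.8 CPM in naloxone libraries, whereas the Ckmt2-led cluster lay between 350.7 and 425.9 CPM, with a mean of 384 CPM and 8.18 times the level. The Pde11a-led cluster, at 350.6 CPM, was like the Ckmt2-led one. In the Drd2-like class the cluster with Camk4 and Syt10 among its leading genes held 312.6 CPM, the one with Htr2c and Ddc 89.3 CPM and the Itga11-led one between 4.85 and 40.4 CPM. The first exceeded the second in all 6 libraries, by 3.50 times on average. Between the classes the difference was small: the fitted log2 of Drd2-like against Drd1-like nuclei was 0.10 (edgeR, adjusted p = 0.210). That value changed with the setting. It was 2.06 with doublets kept, 2.11 at a coarser clustering and -0.47 under the marker gate, all called. The cause of these shifts was not tested.

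**Figure D3:**
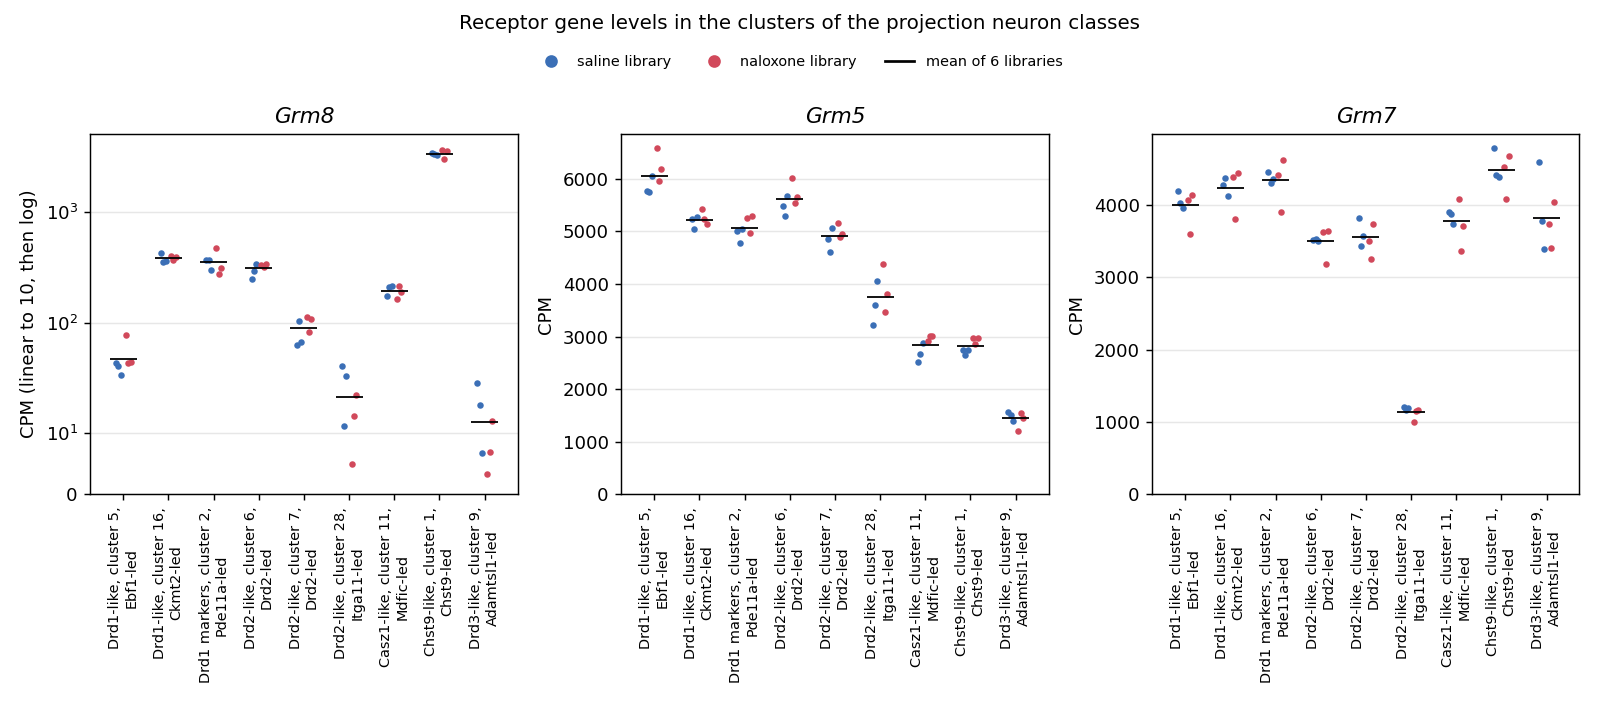
Grm8, Grm5 and Grm7 in the clusters of the spiny classes, in CPM, with 1 point per library (blue saline, red naloxone) and a bar at the mean of 6; the Grm8 axis is linear to 10 and logarithmic above, the other axes are linear. Grm8 spans from 12.7 CPM in the Drd3-like to 3399 CPM in the Chst9-like cluster, and for Grm7 the Itga11-led Drd2-like cluster stands alone at 1143 CPM.

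Elsewhere Grm8 stood at 537 ± 142 CPM in somatostatin-like and 83.8 CPM in Kit-like interneurons, a ratio of 6.42. The astrocyte-like, oligodendrocyte-like, OPC-like, microglia-like and Drd3-like classes all lay between 10.1 and 14.0 CPM, and the shares of their thinned nuclei with a Grm8 UMI lay between 0.876 and 1.34%. Ependymal-like and mural-like nuclei, few and shallow, read 3.47 and 8.13%.

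Grm7 was spread over all neuronal classes. Chst9-like nuclei read 4479 ± 249, the Pde11a-led cluster 4343, Drd1-like 4086 ± 209, Drd3-like 3823, Casz1-like 3782, Drd2-like 3351 ± 149 and Bnc2-like 3150 CPM. The interneuron classes were lower, with somatostatin-like at 1549, cholinergic-like at 1313 and Kit-like at 1048 CPM. Chst9-like nuclei held 4.27 times the Kit-like level. By CPM the Chst9-like level exceeded that of Drd1-like nuclei, the next named class, in 6 of 6 libraries, by 394 ± 111 CPM (exact sign-flip permutation test, p = 0.03125, adjusted 0.0375). That direction did not survive another scaling: with TMM factors, which allow for genes that take up a large share of the counts, the log2 was -0.06 (edgeR, adjusted p = 0.0761), and Grm7 was called lower in Chst9-like nuclei with RLE factors (-0.07, adjusted p = 0.0360) and with no filter on low counts (-0.07, 0.0159). Drd2-like nuclei were lower than Drd1-like nuclei in every library, with a log2 of -0.31 (edgeR, adjusted p = 6.37e-11), which did not pass under the marker gate (-0.07, 0.258). The Itga11-led Drd2-like cluster was the exception among spiny cells, at 1143 CPM, 3.06 times under the Camk4-bearing cluster; it was also lower for Grm5 (3753 against 5609 CPM) and Grm3, and higher for Grm4. Its 6 libraries lay close together for Grm7, below all libraries of every other spiny cluster. Another RefSeq locus, LOC120102505, overlaps Grm7, so part of these counts may not be Grm7.

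In glia Grm7 followed Grm5 in being higher in precursors. OPC-like nuclei held 1747 ± 130 CPM, COP-like 1341 ± 637 and oligodendrocyte-like 236.5 ± 37.2 CPM, with OPC-like against oligodendrocyte-like nuclei 7.39 times higher (fitted log2 3.0). One oligodendrocyte-like cluster stood apart: the Creb5-led cluster, 379 nuclei, read 2436, 1033 and 1840 CPM in saline and 1517, 1410.1 and 1847 CPM in naloxone libraries. Its mean of 1680.5 CPM was 9.61 times that of the Opalin-led cluster (174.9 CPM), with ratios from 4.25 to 15.9 and no overlap. The Gpd1-led and Rasgrp3-led clusters held 113.5 and 48.9 CPM. Astrocyte-like nuclei, at 41.9 ± 12.9 CPM, had the lowest Grm7 level of the glial classes, and 3.49% of them held a UMI after thinning against 76.7% of OPC-like nuclei (8.16% and 94.2% before).

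Grm4 was low in every class. Casz1-like nuclei were highest at 60.4 ± 7.62 CPM, followed by Chst9-like at 49.9, Drd2-like at 41.8, Drd1-like at 38.4 and Pde11a-led nuclei at 28.5 CPM. Casz1-like exceeded Chst9-like nuclei in 6 of 6 libraries, by 10.5 ± 4.01 CPM (exact sign-flip permutation test, p = 0.03125, adjusted 0.0375), and exceeded Drd1-like nuclei by a fitted log2 of 0.58 (edgeR, adjusted p = 1.57e-07). The Itga11-led Drd2-like cluster had a mean above that of any class, at 94.4 CPM with libraries from 56.2 to 152.3 CPM, although in the first saline library it was below the Casz1-like level of 64.5 CPM. Its mean was 2.51 times the Camk4-bearing cluster. Drd3-like nuclei were at 16.3 CPM and Bnc2-like nuclei at 10.8 CPM. Cholinergic-like nuclei, at 2.26 CPM, lay among the glia, where microglia-like nuclei read 4.52 and oligodendrocyte-like nuclei 2.39 CPM.

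The sequences before the start sites of Grm7 and Grm8 are shown because these group III genes, on the same chromosome, differed most in how evenly spiny classes held them. Promoter sequences of 3 of the 6 genes were matched in RefSeq (build GRCr8), and the 250 bases before the annotated start are printed on the gene's strand with each CpG in capitals. Grm7 (chr4:145286476-145286725, + strand) has 9 CpG and 62.0% G and C, and Grm8 (chr4:57687507-57687756, - strand) has 5 CpG and 47.2%.
Grm7: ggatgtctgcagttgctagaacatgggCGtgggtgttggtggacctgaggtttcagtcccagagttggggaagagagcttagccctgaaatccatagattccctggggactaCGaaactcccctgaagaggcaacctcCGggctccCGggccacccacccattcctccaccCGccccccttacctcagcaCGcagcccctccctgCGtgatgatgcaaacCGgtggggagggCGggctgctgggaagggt
Grm8: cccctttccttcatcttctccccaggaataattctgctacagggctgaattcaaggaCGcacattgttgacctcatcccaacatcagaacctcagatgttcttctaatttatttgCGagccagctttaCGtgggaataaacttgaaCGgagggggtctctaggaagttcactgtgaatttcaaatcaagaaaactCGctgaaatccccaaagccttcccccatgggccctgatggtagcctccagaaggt
Of 33469 promoters of this length the median holds 5 CpG, 38.5% hold as many as Grm7 or more and 55.3% as many as Grm8 or more. The Grm5 promoter has 1 CpG and 36.4% G and C, and 92.2% of promoters hold as many. The full cyclic AMP response element, TGACGTCA, which reads the same on both strands, occurs in none of the 3 and in 1.59% of all promoters, which says only that these letters are not in these windows.

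Across the class pairs fixed for testing, most detected receptor genes differed, on a background of many differing genes. For Drd2-like against Drd1-like nuclei 2 of 5 tested receptor genes (Grm5 and Grm7) passed an adjusted p of 0.05 (edgeR quasi-likelihood test with library as a block), beside 20.6% of all genes. For Chst9-like against Drd1-like nuclei 4 of 5 passed, beside 54.5%. Of these, Grm4 (0.19, adjusted p = 0.0151) was lost under DESeq2 (0.145), with no replicate block (0.187), without the third saline library (0.0620) and without the third naloxone library (0.0918), and turned under the gate. For Casz1-like against Drd1-like nuclei 4 of 5 passed, beside 33.4%. Grm8, not called there (log2 0.10), was called without the first naloxone library (0.15), with doublets kept (2.51) and under the gate (1.61). Chst9-like against Casz1-like nuclei gave 5 of 5, beside 40.9% of all genes; Grm8 had a log2 of 4.0, Grm4 was at -0.38, and Grm5, at -0.11, was lost with doublets kept (adjusted p = 0.592) and with no replicate block (0.145). For the glial pairs, astrocyte-like against oligodendrocyte-like nuclei gave 3 of 4 (Grm5 at 2.93, Grm3 at -1.95 and Grm7 at -2.52), beside 70% of all genes, and OPC-like against oligodendrocyte-like nuclei 3 of 4, beside 67.3%.

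Over the 17 named classes, Grm5 and Grm7 had the most similar class profiles among the 6 genes (Pearson r = 0.78 of log2(CPM + 1) class means), and Grm3 was unrelated to the others, with r from -0.33 to -0.01 with each. Among 13498 genes, the profile closest to Grm5 was that of Cacna1e, a voltage-gated calcium channel (r = 0.93), then Caln1 (0.93) and Speg (0.92). Closest to Grm8 were Slc35f4 (0.90), Cnih3, an AMPA receptor auxiliary subunit (0.87), and Frmpd4 (0.86). Closest to Grm7 were Pcdha2, a clustered protocadherin (0.95), the gene with the identifier ENSRNOG00000063994 and Lrrc7 (both 0.94). Closest to Grm3 were Clmn (0.83), Mfap3l (0.79) and Gdpd5 (0.76), and to Grm4 Phyhip (0.93), Camkv and Acd (both 0.91). Closest to Grm2, whose profile holds few UMIs, were LOC108348275 (0.94), AABR07028945.1 and Or10al6 (both 0.91). These classes share 6 libraries and differ in depth, so the values are descriptions.

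Naloxone against saline was then compared within classes, with all genes of a class in 1 fit. None of 71 tests of a receptor gene in 16 class fits passed an adjusted p of 0.05 (edgeR quasi-likelihood test), and 11 had an unadjusted p under 0.05, or 15.5%, beside 9.46% over all genes of those fits. Grm3, Grm5 and Grm7 were tested in 16 classes each, Grm8 in 14 and Grm4 in 9. Grm2 had no class test and was tested only in the sum over all nuclei (log2 0.11, edgeR, adjusted p = 0.835). Of the 71, 37 were higher and 34 lower after naloxone, with a median log2 of 0.0021, and the lowest adjusted p was 0.167. The background of called genes was 0.122% in Drd1-like, 0.716% in Drd2-like, 0.164% in Chst9-like, 0.0285% in Casz1-like, 0.0225% in Drd3-like and 0.0901% in Pde11a-led nuclei. It was 0.158% in Bnc2-like, 0.0219% in Kit-like, 0.904% in astrocyte-like, 0.837% in oligodendrocyte-like, 0.325% in OPC-like and 0.275% in microglia-like nuclei. In cholinergic-like, somatostatin-like, COP-like and endothelial-like nuclei edgeR called 0 genes (0%), with 350, 478, 390 and 152 genes at an unadjusted p under 0.05.

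In the main spiny classes the receptor genes moved little. Over Drd1-like, Drd2-like, Chst9-like, Casz1-like and Pde11a-led nuclei, the log2 changes of Grm3, Grm5, Grm7 and Grm8 lay between -0.10 and 0.25. Grm8 in Chst9-like nuclei was 3377 ± 78.8 CPM after saline and 3421 ± 323 CPM after naloxone (n = 3 each), a log2 of 0.03 with an interval of 2 SE from -0.13 to 0.19. Grm5 in Drd1-like nuclei was 5579 ± 101 and 5899 ± 278 CPM, a log2 of 0.08 (-0.07 to 0.22). Grm8 in Drd2-like nuclei had the highest of these values, 0.25 (0.03 to 0.47), with an adjusted p of 0.332 (edgeR). Grm4 in Drd1-like nuclei was at -0.34 (adjusted p = 0.364) and Grm5 in Casz1-like nuclei at 0.16 (0.5004). In Drd3-like nuclei Grm3, already near the floor, was 33.7 ± 14.1 and 16.2 ± 3.37 CPM, a log2 of -0.99 (edgeR, adjusted p = 0.333).

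**Figure D4:**
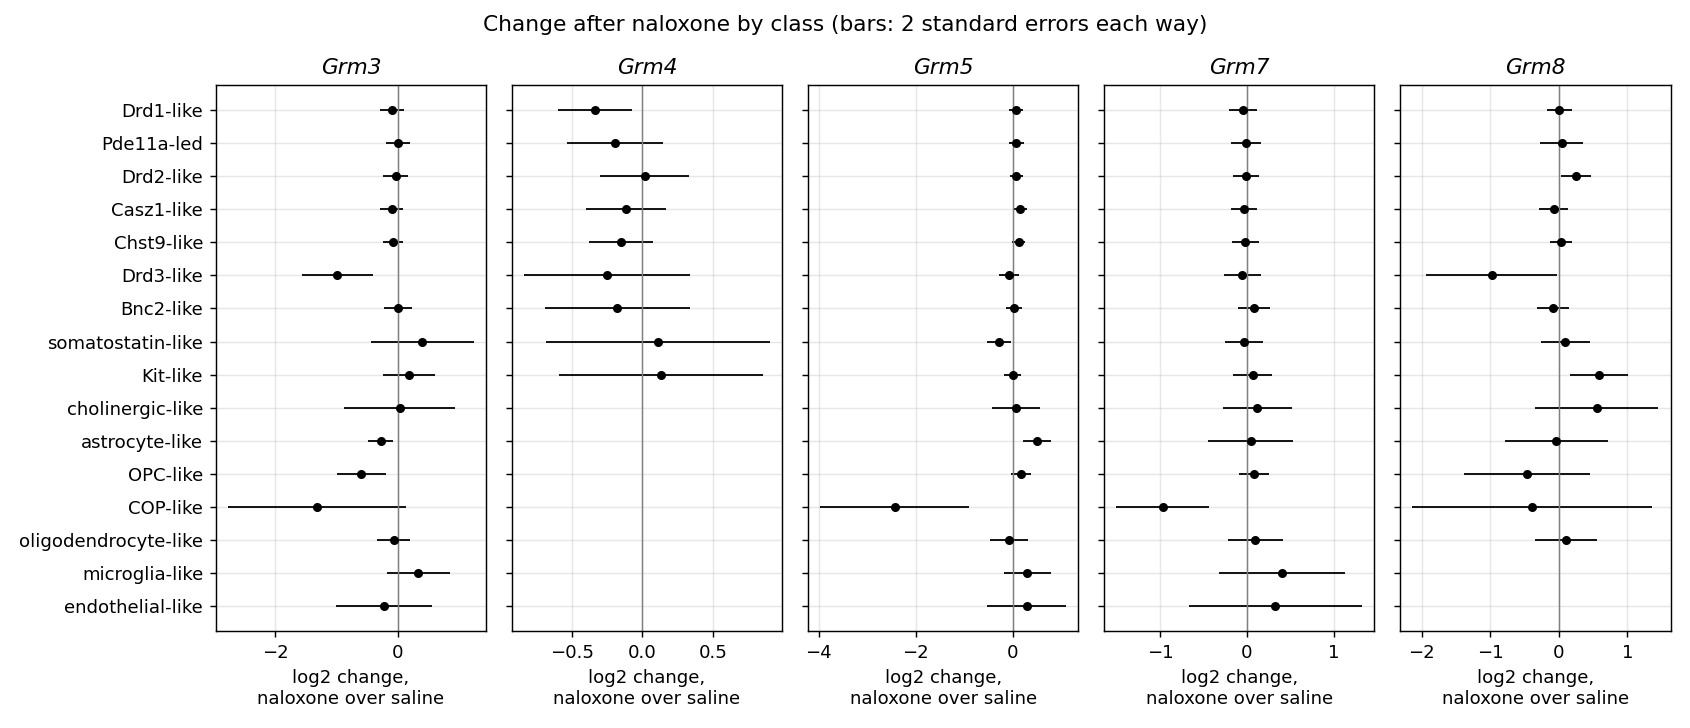
Log2 change of each tested receptor gene, naloxone over saline, by class, with bars of 2 SE from the edgeR fit of 3 against 3 libraries. No change passed the adjusted threshold; Grm5 in COP-like nuclei, at -2.43, has the widest distance from 0 and one of the widest bars.

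Grm5 in astrocyte-like nuclei came closest to a call. The saline libraries read 512.5, 515.7 and 739.0 CPM and the naloxone libraries 664.8, 859.2 and 930.1 CPM, a log2 of 0.50 (SE 0.149, edgeR, adjusted p = 0.167), and the groups overlap. It passed with no filter on low counts (adjusted p = 0.000146) and in no fit that left out a library (0.0669 to 0.550). The mix of astrocyte clusters also differed between the groups. The Lama2-led cluster, with the higher Grm5, was 14.7 to 24.8% of astrocyte-like nuclei in saline and 25.6 to 32.1% in naloxone libraries. Within that cluster Grm5 was 1726, 1533 and 1610 CPM after saline and 1390.5, 1934 and 1988 CPM after naloxone; within the Slc1a2-led cluster it was 189.5, 325, 442 and 339, 459, 388 CPM in the same order. Groups overlap in both. The summed spiny markers were 1376, 1297 and 862 CPM after saline and 669, 1254 and 929 CPM after naloxone, with the groups overlapping and the mean lower after naloxone. Grm3 in the same nuclei went the other way, at 2900.0, 2726 and 2641 CPM after saline and 2333, 1878 and 2435 CPM after naloxone, without overlap, at a log2 of -0.28 (edgeR, adjusted p = 0.320). Within the clusters the Grm3 groups overlap. The Slc1a2-led cluster read 3317, 3012 and 3178 CPM after saline and 2871, 2265 and 3086 CPM after naloxone. The Lama2-led cluster read 1335, 1201 and 1067 against 1135, 839 and 1164 CPM. The parts of cluster mix and of neuronal RNA in the Grm5 and Grm3 differences were not tested.

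**Figure D5:**
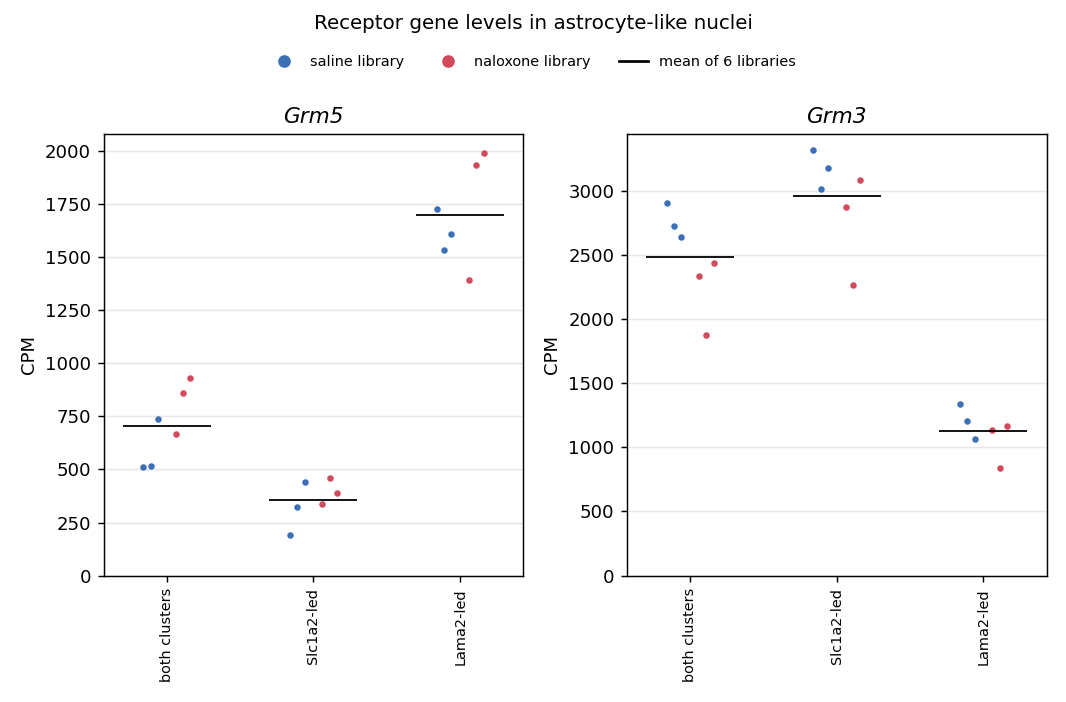
Grm5 and Grm3 in astrocyte-like nuclei, together and by cluster, in CPM from 0, with 1 point per library (blue saline, red naloxone) and a bar at the mean of 6. The Lama2-led cluster holds more Grm5 (1697 CPM) and less Grm3 (1124 CPM) than the Slc1a2-led one (357 and 2955 CPM), and saline and naloxone points overlap within each cluster for both genes.

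In the oligodendrocyte lineage the COP-like class, with as few as 36 nuclei in a library, had the widest values. Grm5 there was 1052, 1243 and 145 CPM after saline and 101, 314 and 44.2 CPM after naloxone, a log2 of -2.43 (SE 0.77, edgeR, adjusted p = 0.620). Grm7 was at -0.97 (adjusted p = 0.620). The summed spiny markers moved with Grm5, at 1310, 1059 and 416 CPM after saline and 455, 606 and 358 CPM after naloxone, and their part in the difference was not tested. Without the third saline library 2 receptor genes, Grm3 and Grm5, passed in these nuclei. The share of all genes called in that fit is not given here. Oligodendrocyte-like nuclei themselves held 9448 ± 652 CPM of Grm3 after saline and 9079 ± 769 CPM after naloxone, a log2 of -0.07 (-0.33 to 0.20), although their clusters shifted: the Gpd1-led cluster was 0.882 to 3.06% of them in saline and 40.2 to 85.1% in naloxone libraries. Grm3 in OPC-like nuclei was at -0.59 (edgeR, adjusted p = 0.349).

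Among interneurons, Grm8 in Kit-like nuclei was 67.4 ± 25.3 CPM after saline and 100.1 ± 20.6 CPM after naloxone (log2 0.59, edgeR, adjusted p = 0.517), and Grm5 in somatostatin-like nuclei was at -0.28 (0.759). In the sum over all nuclei, where fewer cells of a type and less RNA per cell cannot be told apart, Grm4 was at -0.32 (edgeR, adjusted p = 0.286), beside 0.0403% of genes called. The difference between classes in their response was also fitted. No receptor gene passed for Drd2-like against Drd1-like nuclei, where 0.897% of genes did, with Grm4 at 0.36 (edgeR, adjusted p = 0.205) and Grm8 at 0.25 (0.270), nor for Chst9-like against Drd1-like nuclei (0.0079% of genes). In the first pair Grm4 passed without the first naloxone library (0.48, edgeR, adjusted p = 0.0433), and Grm8 without the second saline library (0.38, 0.0367) and with no filter on low counts (0.24, 0.0291).

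Genes that work with these receptors gave few calls, in lists that were chosen with earlier results of these data known. Of the 16 partners of the group I receptor (Gq signalling and scaffold genes), 2 of 202 tests over classes rose and none fell, in Drd2-like nuclei, where 0.716% of all genes were called, and in Bnc2-like nuclei, where 0.158% were. Both were Homer1, whose short activity-induced form uncouples mGlu5 from its scaffold; the counts do not separate its forms. In Drd2-like nuclei Homer1 rose from 344 ± 21.4 to 596 ± 137 CPM (n = 3 each), a log2 of 0.82 (SE 0.14, edgeR, adjusted p = 0.0159), and this call was lost without any 1 of the saline libraries (adjusted p = 0.0882, 0.108 and 0.0719) and under the marker gate (log2 0.60, 0.125). In Drd1-like nuclei it stood at 374 and 370 CPM, a log2 of -0.02. The difference between these responses was a log2 of 0.83 (SE 0.113, edgeR, adjusted p = 8.31e-05), while Grm5 itself, in the same nuclei, was at 0.08 in both. In Bnc2-like nuclei Homer1 rose from 130.3 ± 12.5 to 189 ± 19.9 CPM (log2 0.54, edgeR, adjusted p = 0.0240), a call lost in 4 of 6 fits that left out a library (up to 0.248).

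Of the 13 partners of the group II and III receptors, 1 of 158 tests rose, in astrocyte-like nuclei, where 0.904% of all genes were called. This was Grip1, a scaffold of AMPA receptors (129 ± 11.9 to 188 ± 27.9 CPM, log2 0.58, edgeR, adjusted p = 0.0448). The call was lost in 5 of 6 fits that left out a library (adjusted p up to 0.236), and the log2 was -0.031 under the marker gate. Of 7 genes of glutamate supply and clearance, 1 of 96 tests rose, also in astrocyte-like nuclei (0.904% of all genes called): Slc1a3, the astrocytic glutamate transporter GLAST, from 1866 ± 10.3 to 2438 ± 159 CPM (log2 0.42, edgeR, adjusted p = 0.0324), a call lost in 5 of 6 fits that left out a library (up to 0.239). The mix of astrocyte clusters differed between the groups, as given above, and its part in the Grip1 and Slc1a3 rises was not tested. Class medians of the log2 change ran from -0.35 (COP-like, 8 genes tested) to 0.09 (somatostatin-like) for the group I list and from -0.23 (COP-like, 5 genes) to 0.50 (endothelial-like, 4 genes) for the group II and III list. In Drd1-like, Drd2-like and Chst9-like nuclei the medians of both lists lay between -0.06 and -0.01, beside -0.0014 to 0.0035 for all genes tested.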

How the data were processed

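The deposited values were raw UMI counts per gene and nucleus; per the submitters' processing notes they came from Cell Ranger 9.0.1 with build mRatBN7.2, and Seurat 5.2.1 and R 4.4.0 were used. The filter the authors put on nuclei is not given in the sources used here. Kept nuclei had 500 or more genes and no more than 5% of their UMIs from mitochondrial genes, 2649 called doublets (4.30%) were removed and the rest were clustered (Leiden resolution 1.0, 3000 variable genes, 40 components) without the receptor genes and their partners. Clusters were named from at least 3 detected markers, with no fewer genes of the list than of another list among their leading genes. A mean doublet score of 0.7 or more left 13 clusters unnamed as mixed, with 5295 nuclei (8.98% of those used). Mural-like (0.678), ependymal-like (0.676), cholinergic-like (0.624), endothelial-like (0.623) and COP-like (0.6) nuclei had mean scores under that limit. The part of doublets in their levels was not tested. Counts were summed per library and class and fitted with edgeR 4.0.16 (quasi-likelihood, TMM factors, Benjamini-Hochberg over all genes of a fit, threshold 0.05), with DESeq2 1.42.0 as an alternative, in R 4.3.3. Classes needed 20 nuclei in every library. Python 3.11.15 with scipy 1.17.1 and leidenalg 0.10.2 was used otherwise. Both classes of a pair come from the same library, so library was a block there. The scripts were tested on simulated data. Named were all 6 receptor genes, every partner gene called, and the 3 genes most alike each receptor gene by profile. The members, lists and markers were chosen with earlier results of these data known.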

Additional observations from a re-analysis of the deposited data

Results flagged for a closer look

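Grm8 was also measured in clusters that no marker list named, and whose level was above that of Bnc2-like nuclei (716 CPM), the second of the named classes. The cluster led by Dcdc1-ps1 (204 nuclei) held 2677 ± 491 CPM (n = 6 libraries, 2034 to 3405 CPM), within reach of the 3051 to 3639 CPM of Chst9-like nuclei. The cluster led by Igf1 (313 nuclei) held 1717 ± 285 CPM, and that led by Slc17a6, a vesicular glutamate transporter gene (413 nuclei), 1561 ± 217 CPM. The cluster led by Col6a2 (470 nuclei) held 1280 ± 154 CPM and that led by Slc17a8, another vesicular glutamate transporter gene (1289 nuclei), 1215 ± 100.1 CPM. What these cells are is not given in the labels, and they entered no comparison.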

How the results depend on the processing

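No paired analysis was possible for naloxone against saline because the replicate numbers of the groups differ. For the class pairs, which had library as a block, the fit with no replicate block lost 2 calls: Grm5 in Chst9-like against Casz1-like nuclei (log2 -0.10, adjusted p = 0.145, edgeR) and Grm4 in Chst9-like against Drd1-like nuclei (0.18, 0.187). The causes of the changes below were not tested, and the shares of all genes called under these settings are not given here. The counts below therefore do not show whether the receptor genes stand out from other genes. With no filter on low counts, receptor genes called after naloxone were 1 in astrocyte-like and 3 in COP-like nuclei in place of 0, and 1 passed the Drd2-like against Drd1-like class by treatment term (leaving out a library, 0 to 1). Leaving out a library gave 0 to 2 in COP-like nuclei. For Drd2-like against Drd1-like nuclei 4 were called, in place of 2, with doublets kept and at Leiden resolution 0.5; under the marker gate both glial pairs gave 5 in place of 3. Differences between the highest and the next class, in CPM, no longer passed under the gate for Grm3 (2561), Grm4 (33.2) and Grm5 (6.30), and turned for Grm7 (-326). They also could not pass with fewer libraries, since the smallest sign-flip p is then 0.0625 (5) or 0.25 (3): leaving out a library gave 6650 to 6926 for Grm3, 9.58 to 11.5 for Grm4, 543 to 602 for Grm5, 357 to 423 for Grm7 and 2649 to 2719 for Grm8, and the saline libraries alone 6692, 10.1, 521, 391 and 2636. At resolution 0.5 there was no Casz1-like class. Directions that turned under the gate were, as log2, Grm3 in OPC-like nuclei after naloxone (0.25), Grip1 in astrocyte-like nuclei (-0.031), Grm7 in Casz1-like against Drd1-like (0.0084) and Chst9-like against Casz1-like nuclei (-0.32), Grm4 in Chst9-like against Drd1-like nuclei (-0.93), Grm3 (0.29), Grm4 (-0.0071), Grm5 (0.044) and Grm8 (-0.47) in Drd2-like against Drd1-like nuclei, Grm5 (-0.34) and Grm8 (-2.18) in OPC-like and Grm5 (-0.98) in astrocyte-like against oligodendrocyte-like nuclei. Grm7 in COP-like nuclei turned with doublets kept (0.0083), and Grm8 in OPC-like against oligodendrocyte-like nuclei with a library left out (-0.26 to 0.37). Class by treatment terms that turned with a library left out were Grm3 (-0.023 to 0.11) and Grm8 (-0.10 to 0.13) in Chst9-like and Grm5 (-0.0038 to 0.025) in Drd2-like against Drd1-like nuclei. Of 368 other settings tried for the main results, which include the counts of receptor genes called, 319 kept direction and side of the threshold. Among settings tried for the remaining results, 595 stayed the same, 20 turned direction, 25 lost a call, 22 gained one and 9 shifted in value. Few UMIs limit Grm2, and few nuclei the COP-like and endothelial-like classes, with 382 and 317.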
